A study of Mus musculus with 4 samples.

Results

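Basophil-mast progenitors are marrow cells that carry early transcripts of the basophil and mast cell lineages. Here they were taken from single-cell RNA profiles by raw counts of unique molecular identifiers (UMIs), each of which stands for 1 captured transcript. A barcode entered with at least 1000 gene UMIs, at most 10% mitochondrial UMIs and exactly 1 hashtag at 200 or more counts. Such a cell was a member if Ms4a2 and Csrp3 summed to at least 2 UMIs, called the first clause below. It was also a member if Ms4a2, Csrp3, Fcer1a, Cma1, Mcpt8 and Prss34 summed to at least 3 UMIs, called the second clause. Cells with 10 or more UMIs of the eosinophil granule genes Prg2, Prg3 and Epx per 10000 were left out. The rule found 2301 members among 26943 cells, or 8.54%, and 24642 other cells remained. The rule used measured values of these same cells, so the levels of the 9 rule genes, and of genes that go with them, are descriptions without a test.

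The study profiled bone marrow of wild-type mice, all of which had received E0771 mouse breast cancer cells 3 days before an operation. The operation was femoral artery ligation, which closes the artery that feeds most of the leg (called surgery below), or a sham procedure, and marrow was collected on day 9. Cells had been sorted as lineage-negative and cKit-positive, with or without Sca1, and were captured by PIPseq, which partitions cells in templated emulsions. Each group had 4 replicates marked by hashtag oligonucleotides, with 2 surgery and 2 sham replicates in each of 2 libraries, called batch 1 and batch 2. The treatment label of the libraries names one as ligation and the other as sham, whereas the hashtag names place both groups in each library. Groups were therefore taken from the hashtag names, and every statement on surgery rests on them. Whether 1 animal or several went into a replicate is not stated in the labels, and p-values therefore cover only the spread among these replicates, which may be partly technical.

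Basophils and mast cells both arise from Gata2-dependent progenitors in myeloid development. Both carry the high-affinity IgE receptor FceRI, whose alpha chain is Fcer1a, whose beta chain is Ms4a2 and whose signalling gamma chain is Fcer1g. Crosslinking of bound IgE releases granules that hold histamine and proteases and starts the synthesis of leukotrienes and cytokines. In the mouse, Mcpt8 and Prss34 are granule serine proteases of basophils, while Cma1, Mcpt4 and the tryptases Tpsb2 and Tpsab1 mark maturing mast cells. Csrp3 encodes a LIM-domain protein best known from muscle.

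Members numbered 218, 239, 218 and 398 in the surgery replicates and 127, 459, 312 and 330 in the sham replicates, and their gene UMIs summed to between 1111164 and 5744963 per replicate. Batch 2 was sequenced more deeply, with a median of 11091 UMIs per cell against 6589.5 in batch 1. The libraries shared 5 barcode sequences. Scrublet, a doublet caller, marked 0.286% and 0.269% of the barcodes with 1 hashtag in batch 1 and batch 2. It marked 11.3% and 17.7% of the barcodes with several hashtags, and so missed most of these. Doublets of cells with the same hashtag therefore remained in the data. Levels below are CPM, the usual scaling of summed gene UMIs to a common total, computed per replicate, and are compared between sets of cells, never between genes.

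The members were a mixture of cells that met the label and cells that did not. The first clause held 1434 members (62.3%), and 1005 of these had UMIs of both Ms4a2 and Csrp3, 309 had Ms4a2 alone and 120 had Csrp3 alone. The other 867 members (37.7%) came in by the second clause only, 862 of them with at least 2 UMIs of Mcpt8 and Prss34. Of these 867 cells, 711 (82.0%) had a sum of 3 to 5 UMIs and 721 had no UMI of Ms4a2 or Csrp3. Their median depth was 18502 UMIs, against 6802 in first-clause cells and 8312.5 in the other cells, and a fixed count of 3 UMIs is reached more readily in a deep cell. The 4 lineage markers outside the rule separated the clauses. Cpa3, a carboxypeptidase of basophil and mast cell granules, averaged 2688 ± 326 CPM in first-clause cells, 129 ± 61.1 CPM in second-clause-only cells and 32.4 ± 1.92 CPM in the other cells (SD, n = 8 replicates here and wherever levels of cell sets are compared). Gata2, the transcription factor that basophil and mast cell progenitors require, averaged 835 ± 73.6, 44.6 ± 18.9 and 32.8 ± 4.09 CPM in the same order. Lmo4, a LIM-only transcriptional cofactor, averaged 1351 ± 104, 152 ± 30.8 and 122 ± 4.3 CPM, and Ifitm1, an interferon-inducible membrane protein, averaged 550 ± 62.5, 58.8 ± 23 and 33.2 ± 3.72 CPM.

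**Figure D1:**
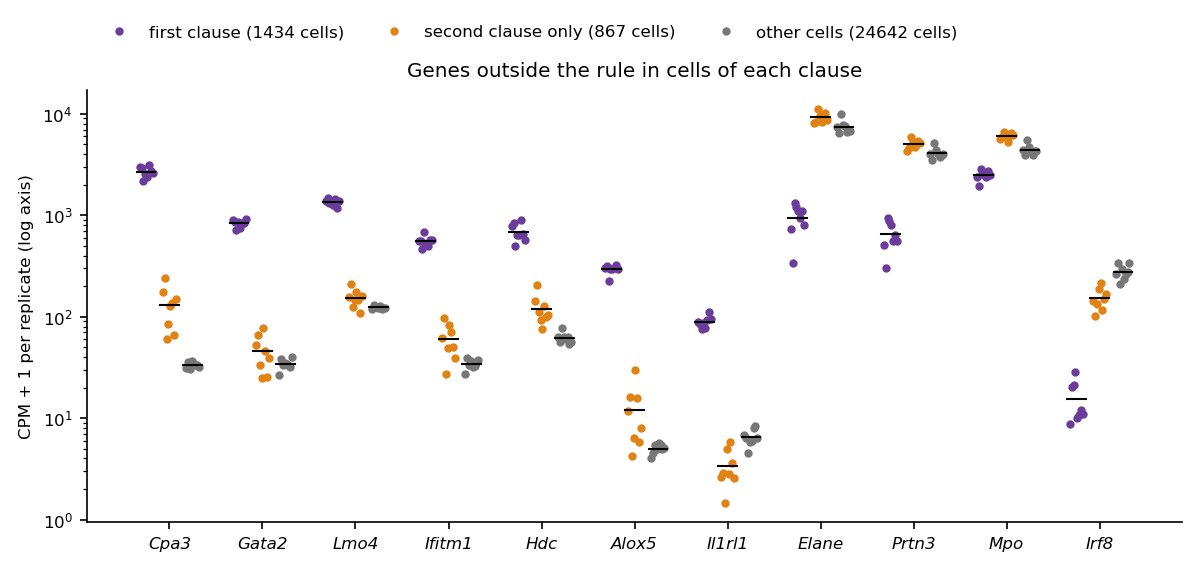
CPM + 1 on a log axis for 11 genes that the rule did not use, 1 point per replicate with a bar at the mean, in cells of the first clause, of the second clause only and in all other cells. Cpa3, Gata2, Lmo4, Ifitm1, Hdc, Alox5 and Il1rl1 were highest in first-clause cells in all 8 replicates, while the neutrophil granule genes Elane, Prtn3 and Mpo and the monocyte factor Irf8 were lowest there.

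Second-clause-only cells instead carried neutrophil primary granule transcripts. Elane, neutrophil elastase, averaged 9223 ± 1058 CPM in them and 938 ± 312 CPM in first-clause cells, against 7456 ± 1143 CPM in the other cells. Mpo, myeloperoxidase, averaged 6033 ± 446 CPM in second-clause-only cells and 2487 ± 277 CPM in first-clause cells, against 4423 ± 532 CPM in the other cells. By the median cell, Elane was lower in first-clause than in other cells (2.25 against 6.37 UMIs per 10000). Mpo was higher there by that measure (17.6 against 12.4 UMIs per 10000). The small share of second-clause-only cells with much Mcpt8 and Prss34 had more Cpa3 and Gata2 than the rest of them, but carried neutrophil transcripts too. The 58 cells with a sum of 30 UMIs or more, at a median depth of 3185.5 UMIs, had 698 CPM of Cpa3 and 365 CPM of Gata2. They also had 7059 CPM of Elane and 5039 CPM of Mpo. The 470 cells with a sum of exactly 3 had 67.9 CPM of Cpa3, 21.9 CPM of Gata2, 9812 CPM of Elane and 6214 CPM of Mpo. The 1539 cells just outside, with a sum of 2 and no membership, had 43.4 CPM of Cpa3 and 9716 CPM of Elane, close to the cells just inside. The edge of the first clause was steeper. Cells with exactly 2 UMIs of Ms4a2 and Csrp3 (234 cells) had 672 CPM of Cpa3, 422 CPM of Gata2 and 4490 CPM of Elane, and the 819 cells with 1 UMI that were no members had 63.1 CPM of Cpa3, 93.0 CPM of Gata2 and 8683 CPM of Elane. At the eosinophil limit, 8 members held 5 to under 10 eosinophil granule UMIs per 10000, and 7 cells just outside held 10 to under 20.

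UMIs of Mcpt8 also appeared in cells of unrelated lineages. With every cell thinned to 2000 UMIs, which left out shallower cells, 67.8% of first-clause cells (95% exact binomial interval 65.3 to 70.3%) and 35.5% of second-clause-only cells (32.2 to 38.8%) had a Mcpt8 UMI, against 4.18% of the other cells (3.92 to 4.46%). Among B-lineage cells, which do not use this protease, the share was 2.70% (2.15 to 3.34%). Without thinning the shares were 75% of first-clause cells, 97.2% of second-clause-only cells, 18.0% of the other cells and 7.30% of B-lineage cells, whose median depth was 2951 UMIs. For Ms4a2 the thinned shares were 71.6% of first-clause cells (91.6% without thinning), 3.26% of second-clause-only cells (12.8%) and 0.0987% of B-lineage cells (0.532%). These intervals cover counting error only. Mcpt8 and Ms4a2 are rule genes, and the other cells and B-lineage cells exclude members, so the rule fixes these shares in part. From here on, first-clause cells are described as the basophil-mast progenitors that their markers outside the rule bear out. Second-clause-only cells are named by their clause.

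Few transcripts of the mast cell side were found. No member had a UMI of Mcpt1, Mcpt2, Mcpt9, Tpsab1, Mrgprb1, Mrgprb2 or Il5, and 0 of 2301 cells allows a share of up to 0.130% of cells with a UMI. Mcpt4, Tpsb2 and Tpsg1 were each seen in 1 member, and in 0 of 1434 first-clause cells, which allows up to 0.209%. Cma1, the mast cell chymase that the rule itself counts, was seen in 8 members with 20 UMIs in all. The cells therefore carried the genes that both lineages share and the basophil proteases, and hardly any UMI of the mast cell proteases.

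GATA factors, among them Gata2, bind the letters AGATAA. The start regions of Ms4a2, Fcer1a, Prss34 and Cpa3 are shown as examples that hold such a match, and not every gene of these cells does. Each line gives 250 bases before and 50 after the annotated gene start from RefSeq on build GRCm38.p6, in the direction of the gene, with AGATAA or its reverse complement TTATCT in capitals. Ms4a2 lies at chr19:11623670-11623969 on the minus strand with 3 matches, Fcer1a at chr1:173227180-173227479 on the minus strand with 1, Prss34 at chr17:25298144-25298443 on the plus strand with 1, and Cpa3 at chr3:20242132-20242431 on the minus strand with 1. The matches began 224, 37 and 11 bases before the start of Ms4a2 and 92, 31 and 46 bases before those of Fcer1a, Prss34 and Cpa3.
Ms4a2: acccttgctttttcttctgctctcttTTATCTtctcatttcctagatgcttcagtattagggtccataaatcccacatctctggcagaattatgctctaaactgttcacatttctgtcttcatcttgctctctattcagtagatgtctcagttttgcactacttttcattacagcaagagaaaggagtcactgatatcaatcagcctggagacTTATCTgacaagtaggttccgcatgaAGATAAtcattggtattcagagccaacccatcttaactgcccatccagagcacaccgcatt
Fcer1a: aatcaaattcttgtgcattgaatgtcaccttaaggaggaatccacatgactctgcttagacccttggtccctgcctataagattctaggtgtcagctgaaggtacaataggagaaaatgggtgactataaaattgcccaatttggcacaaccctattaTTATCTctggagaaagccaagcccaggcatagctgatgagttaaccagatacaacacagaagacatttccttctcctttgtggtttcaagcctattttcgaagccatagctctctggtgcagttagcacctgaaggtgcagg
Prss34: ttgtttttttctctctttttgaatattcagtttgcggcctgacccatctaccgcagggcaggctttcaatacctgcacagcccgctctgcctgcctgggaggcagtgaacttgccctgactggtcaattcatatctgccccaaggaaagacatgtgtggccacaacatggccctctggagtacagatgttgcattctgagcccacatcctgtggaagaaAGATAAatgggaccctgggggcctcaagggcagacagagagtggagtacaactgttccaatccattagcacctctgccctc
Cpa3: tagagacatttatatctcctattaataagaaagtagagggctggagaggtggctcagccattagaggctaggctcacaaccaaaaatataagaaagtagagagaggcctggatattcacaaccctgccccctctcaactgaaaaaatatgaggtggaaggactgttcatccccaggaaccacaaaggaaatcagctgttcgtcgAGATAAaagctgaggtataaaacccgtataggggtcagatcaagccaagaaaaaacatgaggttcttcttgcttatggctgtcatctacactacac
Among the 6 lineage genes of the rule, 3 held such a match in their window (Ms4a2, Fcer1a and Prss34). The rule genes Mcpt8, Csrp3 and Cma1 had a window without one. Of the 15 genes with the highest ratio of members to other cells, 13 had a window, and 3 of these held a match (Cpa3, Cd200r3 and Slc18a2). The share among all 27025 genes with a window was 12.7%. A match is a string of letters, not a bound site.

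Receptors of IgE-responsive cells were found mostly in first-clause cells. These held 91.8% of all Ms4a2 UMIs in the series, which the clause fixes by selecting on Ms4a2, 95.9% of those of Fcer1a and 92.8% of those of Cd200r3, a CD200 receptor family member of basophils and mast cells. Fcer1a averaged 562 ± 116 CPM there, 9.57 ± 7.66 CPM in second-clause-only cells and 0.622 ± 0.205 CPM in the other cells. Fcer1g, which serves other Fc receptors too, averaged 518 ± 63.4 CPM in first-clause cells against 224 ± 36.5 CPM in the other cells. Il1rl1, the receptor for the alarmin IL-33, averaged 87.4 ± 10.9 CPM in first-clause cells against 5.51 ± 1.19 CPM in the other cells, but only 39.6% of its UMIs lay in first-clause cells and 43.3% lay in early erythroid cells. Of 17 surface receptor genes with at least 20 CPM in either set, 14 were higher in first-clause cells in 8 of 8 replicates and 2 were lower. Among all 7428 genes of that level 26.4% were higher and 27.6% lower in 8 of 8, as a description without a test, and the 14 include the rule's own genes Ms4a2 and Fcer1a. Ccr2, a chemokine receptor of monocytes, was one of the lower receptors, at 7.46 CPM in first-clause cells against 68.8 CPM in the other cells.

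The 15 genes outside the rule with the highest ratio of members to other cells included 7 with other roles, all described by the same choice of cells. Cyp11a1, the enzyme that starts steroid synthesis from cholesterol, averaged 163 ± 34.2 CPM in first-clause cells against 0.418 ± 0.182 CPM in the other cells, and Cdh1, the adhesion molecule E-cadherin, 159 ± 18.9 CPM against 1.51 ± 0.234 CPM. Rnase12, of the ribonuclease A family, averaged 269 ± 24.2 CPM against 4.31 ± 0.942 CPM, and Padi2, a peptidylarginine deiminase, 235 ± 23.9 CPM against 8.17 ± 1.53 CPM. Niban1, a stress-response regulator, averaged 338 ± 53 CPM against 9.73 ± 1.05 CPM, Abhd15, a hydrolase-fold protein, 198 ± 32 CPM against 11.4 ± 0.995 CPM, and the unnamed gene Gm48228 183 ± 68.4 CPM against 10.8 ± 2.02 CPM. The other 8 were Cd200r3, Il6, Cpa3, Alox5, Csf1, Hgf, Gata2 and Slc18a2.

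The granule proteases were those of basophils. Mcpt8 averaged 11233 ± 1838 CPM in first-clause cells, 414 ± 180 CPM in second-clause-only cells and 24.4 ± 2.49 CPM in the other cells, and first-clause cells held 91.3% of its UMIs. Prss34 averaged 12831 ± 2695, 218 ± 156 and 13.4 ± 3.8 CPM in the same order, with 95.8% of its UMIs in first-clause cells. Both numbers follow in part from the rule. Gzmb, granzyme B, was not used by the rule, and 61.7% of its UMIs lay in first-clause cells, at 23.8 ± 18 CPM with a range of 5.3 to 57.6 over the replicates. Ctsg, cathepsin G, ran the other way in summed counts, at 2052 ± 187 CPM in first-clause cells against 3038 ± 374 CPM in the other cells. The median first-clause cell nevertheless held more of it, at 13.9 Ctsg UMIs per 10000 against 5.24 in the median other cell. In all, 5 of 7 protease genes, Mcpt8 and Prss34 among them, were higher in first-clause cells in 8 of 8 replicates and 2 were lower.

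Genes for making and storing mediators were mostly higher in first-clause cells. Hdc, histidine decarboxylase, the enzyme that makes histamine, averaged 691 ± 137 CPM in first-clause cells, 119 ± 40.5 CPM in second-clause-only cells and 60.7 ± 7.21 CPM in the other cells. Slc18a2, the vesicular transporter that loads histamine into granules, averaged 178 ± 21.4 CPM against 8.08 ± 2.14 CPM in the other cells. Alox5, 5-lipoxygenase, which starts leukotriene synthesis, averaged 293 ± 30.1 CPM against 3.99 ± 0.515 CPM, and 73.8% of its UMIs lay in first-clause cells. The enzymes after it differed by less or in the other direction. Ltc4s, leukotriene C4 synthase, averaged 4.46 ± 1.44 CPM against 2.2 ± 0.408 CPM, and Lta4h, leukotriene A4 hydrolase, averaged 140 ± 17.5 CPM against 357 ± 30.6 CPM in the other cells. Ndst2, an enzyme of heparin synthesis, averaged 59.4 ± 6.91 CPM against 10.8 ± 1.01 CPM. Of 13 genes of this group 9 were higher and 3 lower in 8 of 8 replicates.

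Cytokine transcripts were detected too. Il4, the type 2 cytokine of basophils, averaged 32.9 ± 10.5 CPM in first-clause cells against 0.482 ± 0.162 CPM in the other cells, whereas Il13 averaged 1.31 ± 2.29 CPM and was at 0 in some replicates. Il6 averaged 121 ± 32.2 CPM against 0.819 ± 0.429 CPM, and Csf1, the growth factor of macrophages, 161 ± 28.2 CPM against 2.55 ± 0.522 CPM. The chemokines Ccl3 and Ccl4 averaged 241 ± 71.2 and 291 ± 81.8 CPM in first-clause cells against 55.9 ± 10.3 and 69.6 ± 10.4 CPM in the other cells. Hgf, hepatocyte growth factor, averaged 544 ± 140 CPM against 13.9 ± 1.9 CPM. Of 7 cytokine genes with at least 20 CPM, 6 were higher in 8 of 8 replicates. Immediate early genes, 10 of 14, and TNF and NF-kB genes, 10 of 12, were also higher in 8 of 8. Egr1, an early growth response factor, averaged 624 ± 105 CPM against 63 ± 8.54 CPM, and Nfkbia, the NF-kB inhibitor that NF-kB induces, 981 ± 184 CPM against 196 ± 21.6 CPM.

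Among transcription factors, 13 of 24 were higher and 6 lower in first-clause cells in 8 of 8 replicates. Cebpa, which directs granulocyte fates and which basophils keep, averaged 331 ± 29.9 CPM in first-clause cells against 74.6 ± 6.76 CPM in the other cells. Runx1 averaged 1639 ± 234 CPM against 334 ± 50.3 CPM, and Ikzf2, an Ikaros family factor, 836 ± 74.7 CPM against 58.3 ± 9.66 CPM. Mitf, a main regulator of mast cells, was lower, at 8.72 ± 3.9 CPM against 17.8 ± 3.17 CPM. Irf8, which drives monocyte and dendritic fates, averaged 14.3 ± 7.03 CPM against 277 ± 44.6 CPM, and Gfi1, a transcriptional repressor, 16.3 ± 8.77 CPM against 58.9 ± 12.3 CPM. Marker lists of most other lineages were low, with 13 of 14 neutrophil genes, 12 of 13 monocyte genes, 11 of 12 erythroid genes and 9 of 9 B and lymphoid genes lower in 8 of 8 replicates. Other lists were not low. Of 5 megakaryocyte genes 2 were higher and 1 lower, and the list summed to 775 CPM in first-clause cells against 678 CPM in the other cells. Of 9 genes of stem cell identity 5 were higher and 1 lower, and of 2 T, NK and innate lymphoid genes 1 was higher and 0 were lower.

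Among growth factor receptors, those for IL-3 were higher in first-clause cells. Il3ra, the alpha chain of the IL-3 receptor, averaged 104 ± 14.4 CPM in first-clause cells against 28.4 ± 2.15 CPM in the other cells. Csf2rb, the common beta chain, averaged 221 ± 28.4 CPM against 41.1 ± 2.22 CPM, and Csf2rb2, the beta chain that mice use for IL-3 alone, 42.9 ± 9.44 CPM against 2.77 ± 0.425 CPM. The sequences of Csf2rb and Csf2rb2 are nearly identical, so how their reads were divided is uncertain. Kit, the receptor of stem cell factor on which the sort selected, averaged 98.6 ± 11.6 CPM against 108 ± 4.58 CPM, with overlapping replicates. Itgb7, the integrin chain that homes mast cell progenitors to the gut, averaged 57.1 ± 6.41 CPM against 16.3 ± 3.06 CPM, whereas Itgae averaged 2.17 ± 1.52 CPM against 7.6 ± 1.34 CPM. Genes of the unfolded protein response were higher in 14 of 20 cases, among them the endoplasmic reticulum chaperone Hspa5 (1271 ± 323 CPM against 581 ± 66.7 CPM). S phase genes were lower in 21 of 25 cases and MYC and ribosome biogenesis genes in 13 of 19.

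First-clause cells were spread over a wide span of granule protease content, with fewer cells in between than towards the ends. Mcpt8 and Prss34 together were absent in 313 cells, below 3 UMIs in 459 cells (the low range) and at 100 or more per 10000 in 716 cells (the high range), with 259 cells in the middle range. Both limits were set after the distribution was seen, and 203 cells lay between 50 and 200 per 10000, near the upper limit, so these are ranges and not types. Other genes differed between the ranges too, as a description without a test. Fcer1a, which only the second clause counts, averaged 19.1 ± 10 CPM in the low range, 126 ± 48 CPM in the middle and 1049 ± 132 CPM in the high range. Ms4a2 averaged 384 ± 51, 764 ± 68.4 and 953 ± 80.8 CPM in the same order, though the first clause itself requires Ms4a2 or Csrp3. Cpa3 averaged 615 ± 136 CPM in the low range, 1905 ± 204 CPM in the middle and 4264 ± 311 CPM in the high range. Alox15, which makes lipid mediators, averaged 68.3 ± 5.97 CPM in the high range and 0.214 ± 0.606 CPM in the low range, and Il6 averaged 225 ± 49.9 CPM against 6.85 ± 8.7 CPM. All 7 cytokine genes with at least 20 CPM, 14 of 16 surface receptors and 5 of 6 proteases were higher in the high than in the low range in 8 of 8 replicates, against 11.6% of all 6871 genes. Mcpt8 and Prss34 define the ranges and were higher there by construction, and the other 3 of the 5 proteases were Cpa3, Ctsg and Ctsd.

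**Figure D2:**
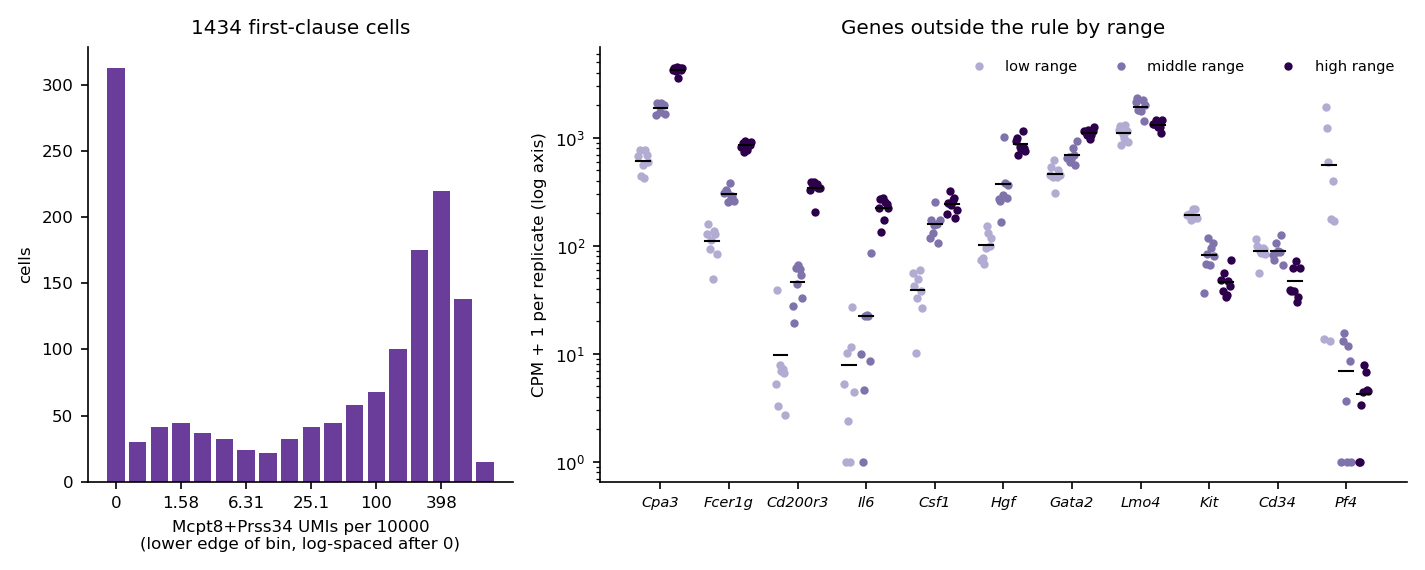
Left, the number of first-clause cells by Mcpt8 and Prss34 UMIs per 10000, with 313 cells at 0. Right, CPM + 1 on a log axis for 11 genes outside the rule in the low, middle and high ranges, 1 point per replicate with a bar at the mean. Cpa3, Fcer1g, Cd200r3, Csf1 and Gata2 averaged most in the high range and Kit most in the low range, while Pf4 in the low range spread over replicates.

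The low range kept stem and progenitor transcripts. Kit averaged 193 ± 17 CPM in the low range, 81.2 ± 25.7 CPM in the middle and 45.7 ± 13.1 CPM in the high range, and no replicate of the high range reached any of the low range. Meis1, a factor of stem cells and early progenitors, averaged 323 ± 51.1, 137 ± 29.2 and 62 ± 8.54 CPM, and Zfpm1, the GATA1 cofactor FOG1, 66.1 ± 28.3, 19.3 ± 11.5 and 6.1 ± 4.17 CPM in the same order. Of 8 genes of stem cell identity, 7 were lower in the high range in 8 of 8 replicates, as were 11 of 18 MYC and ribosome biogenesis genes, against 15.8% of all genes. Npm1, a ribosome assembly chaperone, averaged 385 ± 20.9 CPM in the high range and 809 ± 67.7 CPM in the low range. Gata2 averaged most in the high range (464 ± 90.8, 688 ± 119 and 1116 ± 83.6 CPM in the same order), and Gata1 least (66 ± 9.58, 52.5 ± 17.6 and 36.1 ± 6.09 CPM). Ets1, an ETS family factor, averaged 429 ± 28.2 CPM in the high range and 18.5 ± 7.57 CPM in the low range, and Lmo4 peaked in the middle at 1937 ± 295 CPM. Unfolded protein response genes were higher in the high range in 16 of 20 cases, with Hspa5 at 1797 ± 463 CPM against 617 ± 90.5 CPM in the low range.

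Some transcripts of other lineages averaged more in the low range and others less. Elane averaged 241 ± 30.5 CPM in the high range and 2152 ± 881 CPM in the low range, and Pf4, a platelet chemokine of megakaryocytes, averaged 3.21 CPM in the high range and 563 CPM in the low range. These low-range averages came from a minority of cells: the median low-range cell held 0 Pf4 UMIs and 2.28 Elane UMIs per 10000, and 17 of 459 cells (3.70%) held at least 3 UMIs of Pf4, Gp9 and Gp1bb. At least 5 UMIs of the erythroid genes Car1 and Klf1 were held by 47 low-range cells (10.2%), by 3 of the middle range and by 1 of the high range. The B and lymphoid list summed to 79.7 CPM in the high range and 65.3 CPM in the low range, and the T, NK and innate lymphoid list to 777 CPM in the high range and 506 CPM in the low range. The median cell held 21.9 Mpo UMIs per 10000 in the high range and 5.68 in the low range. Whether cells with such transcripts are doublets was not tested.

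The question of the surgery comparison was whether limb ischaemia changed how many of these cells the marrow of tumour-bearing mice held, or what they expressed. Their share of all cells differed between the groups by less than the spread of the replicates. Members made up 7.38%, 6.95%, 11.6% and 11.3% of cells in the surgery replicates (the pair of batch 1 first, as everywhere below) and 5.30%, 7.79%, 8.54% and 10.3% in the sham replicates. The means were 9.29 ± 2.47% after surgery and 7.99 ± 2.08% after sham (SD, n = 4 each), a difference of 1.31 percentage points (two-sided exact permutation test over 70 assignments, p = 0.457). The groups overlapped, and the batches differed more than the groups did. Within batch 1 the difference was 0.622 points and within batch 2 it was 1.99 points (exact test within batches, p = 0.167). With the rule applied to cells thinned to 1000 UMIs the difference was 0.108 points (exact p = 0.8), and with higher minimums in both clauses it was 0.296 points (exact p = 0.686). First-clause cells were 5.38 ± 0.815% after surgery and 5.19 ± 1.05% after sham, a difference of 0.198 points (exact p = 0.8), with 0.0784 points in batch 1 and 0.318 in batch 2. Second-clause-only cells were 3.91 ± 1.66% after surgery and 2.80 ± 1.10% after sham, a difference of 1.11 points (exact p = 0.286). In batch 2 the median depth of the other cells was 12184.5 and 11367 UMIs after surgery and 10715 and 10246 UMIs after sham. In batch 1 it was 7226 and 6240.5 UMIs after surgery and 5753 and 6797 UMIs after sham. With the rule on thinned cells the member difference in batch 2 was 0.0638 points. With 4 replicates each, the smallest p the test can give is 0.0286. In a sorted marrow, a share reflects the gate and the other cells as well as the number of these cells.

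**Figure D3:**
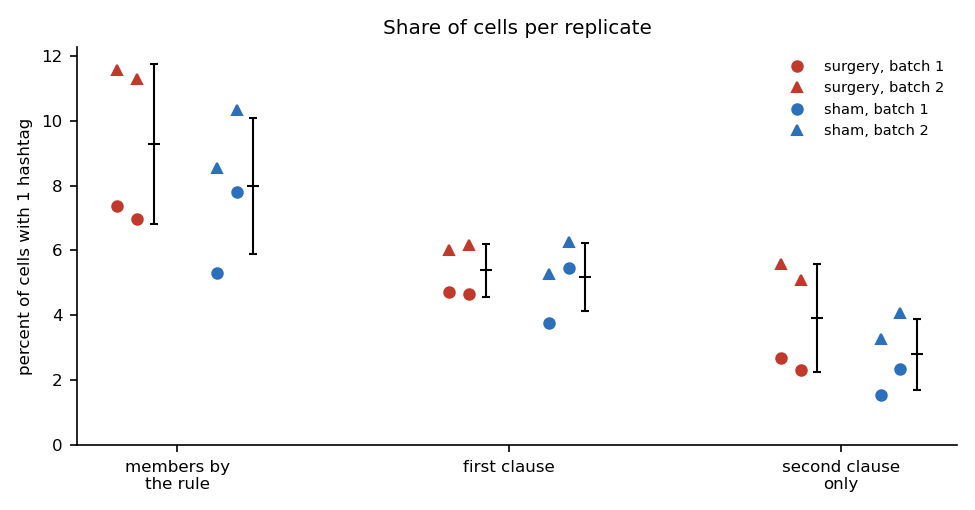
Percent of cells with 1 hashtag that were members, first-clause cells or second-clause-only cells, 1 point per replicate, circles for batch 1 and triangles for batch 2, with mean ± SD of 4 replicates. Surgery and sham replicates overlapped in all 3 sets, and batch 2 lay higher for second-clause-only cells.

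No measure of the make-up of the cells passed the threshold either. Within first-clause cells the high range held 49.4 ± 8.77% after surgery and 49.5 ± 4.83% after sham (exact p = 1.0), and the low range held 32.6 ± 6.46% after surgery and 32.7 ± 5.21% after sham (exact p = 1.0). Cells in which 3 or more G2/M genes had a UMI after thinning made up 76.9%, 69.2%, 75.7% and 75.1% of members after surgery and 68.9%, 71.5%, 73.8% and 68.3% after sham, a difference of 3.62 points (exact p = 0.143). It was 2.92 points in batch 1 and 4.33 in batch 2, and turned to -1.20 points when cells were thinned to 1000 UMIs. Members with a Mcpt8 or Prss34 UMI after thinning were 64.9%, 62.4%, 52.8% and 51.8% after surgery and 68.0%, 68.0%, 53.6% and 56.8% after sham, a difference of -3.66 points (exact p = 0.514), and without thinning it was 2.73 points. Both surgery replicates lay below both sham replicates in each batch, by 4.36 and 2.96 points on average, which is the smallest p that the exact test within batches can give (0.0556). The second clause itself counts Mcpt8, Prss34 and Cma1, so the rule sets the shares of members with these genes in part. These shares also move with the mix of the clauses, so their p-values in members cannot decide whether surgery changed them. In first-clause cells alone the Mcpt8 or Prss34 difference was -2.52 points (exact test within batches, p = 0.333), and the groups overlapped in each batch. After thinning to 2000 UMIs, Cma1 was seen in 0 members after surgery and in 0.373% of members after sham on average (exact p = 0.143). Without thinning the means were 0.167% after surgery and 0.442% after sham (exact p = 0.371).

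Few genes passed the test of surgery against sham. In all members, 1 of 11350 genes passed (edgeR quasi-likelihood test with Benjamini-Hochberg adjustment over all genes, batch as a term; 0.00881% of genes tested). In first-clause cells, 0 of 9625 genes passed by edgeR (0.0%), with 345 at an unadjusted p under 0.05 and 1 called by DESeq2, which was Gpr158. In second-clause-only cells 3 of 10066 genes passed (0.0298%), namely Thbs1, Tex2 and Tap2. The median log2 fold change over all genes in first-clause cells was 0.00.

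Thbs1, which encodes the secreted matrix protein thrombospondin 1, was the single call in members. It stood at 6.63, 4.98, 24 and 10.4 CPM in the surgery replicates and at 0.9, 1.22, 0 and 0.915 CPM in the sham replicates, so the groups did not overlap. The log2 fold change was 4.01 ± 0.53 (SE; edgeR adjusted p = 0.0106), on 14, 10, 79 and 60 UMIs after surgery and 1, 5, 0 and 4 UMIs after sham. In the second-clause-only cells Thbs1 stood at 11.5, 9.39, 35.6 and 14.1 CPM after surgery and at 0, 0.975, 0 and 0.779 CPM after sham (log2 fold change 5.07 ± 0.58, edgeR adjusted p = 0.000399). First-clause cells held 15 Thbs1 UMIs in 11 cells, at 0, 0, 1.77 and 3.53 CPM after surgery and 1.82, 1.47, 0 and 1.11 CPM after sham, too few to pass the filter on low counts. The effect in members minus that in all other cells missed the threshold (0.86 ± 0.56 on the log2 scale, edgeR adjusted p = 0.988). No gene passed in that comparison (0 of 11350 by edgeR, 0.0%, with 574 at an unadjusted p under 0.05). Without batch 2 sham replicate 1 the log2 fold change in members was 3.31 (edgeR adjusted p = 0.125), and without batch 2 sham replicate 2 it was 3.98 (adjusted p = 0.270). DESeq2 gave 3.86 (adjusted p = 0.0723), and edgeR without the batch term 4.01 (adjusted p = 0.247).

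Tex2, which encodes a lipid-binding protein at contacts of the endoplasmic reticulum, was called after surgery outside the first clause and not within it, and the test of that difference passed. It lies on chromosome 11 at 106502147 to 106613423 of GRCm38, on the minus strand, next to Ern1. In cells outside the first clause Tex2 was higher after surgery, with a log2 fold change of 0.85 ± 0.09 (edgeR adjusted p = 0.0295, among 7 calls in 16649 genes, 0.042%). All other cells stood at 140, 131, 132 and 120 CPM after surgery and 97.3, 72.5, 64.5 and 66.2 CPM after sham. Second-clause-only cells did likewise, at 122, 137, 161 and 129 CPM after surgery and 90.9, 67.3, 61.6 and 63.1 CPM after sham (log2 fold change 1.04 ± 0.12, edgeR adjusted p = 0.000399). In first-clause cells Tex2 stood at 77.8, 61.6, 62.7 and 90.8 CPM after surgery and 87.2, 90.2, 61.3 and 69.9 CPM after sham. The groups overlapped, and the log2 fold change was -0.01 ± 0.15 with a 95% interval of -0.29 to 0.28, on 837 UMIs in 575 of 1434 cells. The 2 effects differed by -0.90 ± 0.15 (95% interval -1.18 to -0.61; edgeR adjusted p = 0.00253), among 9 genes with such a difference in 9625 tested (0.0935%). Without batch 1 sham replicate 2 the difference was -0.74 (edgeR adjusted p = 0.0776). Against second-clause-only cells the difference was -1.02 ± 0.18 (edgeR adjusted p = 0.00739, among 5 calls, 0.0519%).

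The Tex2 effect also had an interval around 0 in megakaryocyte and early erythroid progenitors. Megakaryocyte progenitors, chosen by Pf4, Itga2b, Gp1bb and Gp9, stood at 58.2 to 70.2 CPM of Tex2 after surgery and 53 to 69.3 CPM after sham (log2 fold change 0.10 ± 0.13, 95% interval -0.16 to 0.35, with 0 of 9434 genes called by edgeR, 0.0%, and 420 at an unadjusted p under 0.05). Early erythroid progenitors stood at 26.5 to 28.9 CPM after surgery and 27.1 to 29.8 CPM after sham (-0.08 ± 0.10, 95% interval -0.27 to 0.12, with 0 of 10226 genes called by edgeR, 0.0%, and 362 at an unadjusted p under 0.05). B-lineage cells rose, at 60.3, 62.6, 86.6 and 58.6 CPM after surgery and 40, 35.4, 38.8 and 43.8 CPM after sham (0.77 ± 0.12, edgeR adjusted p = 0.0158, among 12 calls, 0.107%). The effect in first-clause cells differed from that in megakaryocyte progenitors by -0.13 ± 0.18 (95% interval -0.49 to 0.22; edgeR adjusted p = 1.0) and from that in B-lineage cells by -0.78 ± 0.19 (edgeR adjusted p = 0.156). Within the high range alone, whose cells held little Elane, the Tex2 effect was -0.03 ± 0.15 and the difference from cells outside the first clause -0.91 ± 0.15 (edgeR adjusted p = 0.00361, among the calls of that comparison, 0.0393%). Ern1, the neighbouring sensor of the unfolded protein response, stood at 96.8, 107, 117 and 89.3 CPM in first-clause cells after surgery and 87.2, 122, 92.6 and 113 CPM after sham, and its effect did not differ past the threshold (difference -0.37 ± 0.12, edgeR adjusted p = 0.570).

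**Figure D4:**
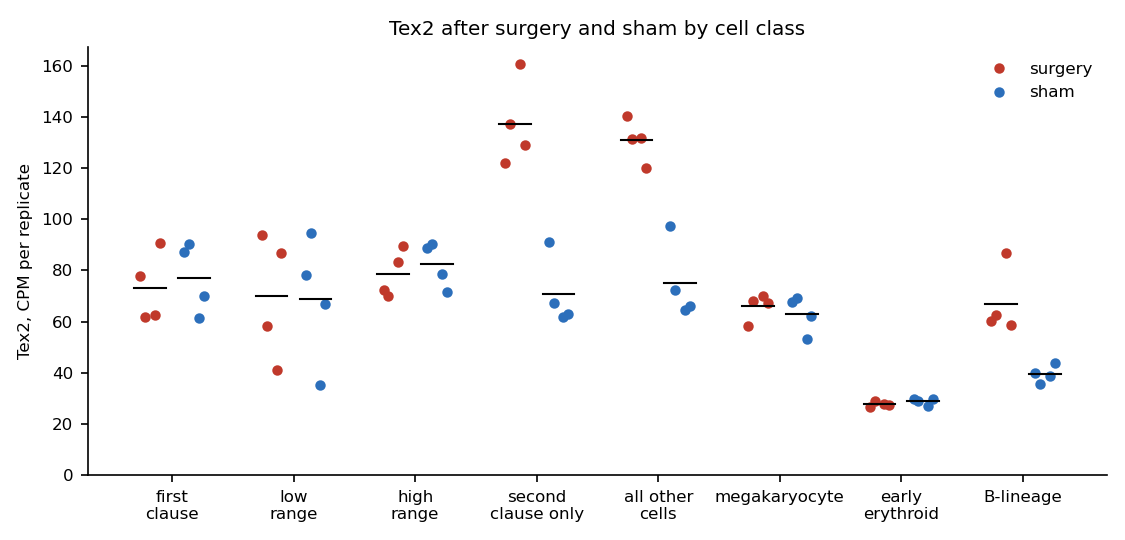
CPM of Tex2 after surgery and after sham in 8 sets of cells, 1 point per replicate with a bar at the mean. Surgery and sham replicates overlap in first-clause cells, in their low and high ranges and in megakaryocyte and early erythroid progenitors, and are apart in second-clause-only, all other and B-lineage cells.

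Of the other 8 genes whose surgery effect differed between first-clause cells and all cells outside them, Hgf rested on many cells. It stood at 631, 584, 322 and 455 CPM in first-clause cells after surgery and 627, 778, 487 and 467 CPM after sham, with overlapping groups. The log2 fold change in first-clause cells was -0.25 ± 0.09 and did not pass, and it differed from that outside by -0.50 ± 0.10 (edgeR adjusted p = 0.0271). In second-clause-only cells Hgf stood at 75, 93.9, 18.5 and 24.2 CPM after surgery and 51.7, 47.8, 13.9 and 19.1 CPM after sham, and the difference from these cells was -0.88 ± 0.15 (edgeR adjusted p = 0.00739). In the high range, where Hgf averaged most, the difference from cells outside the first clause was -0.27 (edgeR adjusted p = 0.977). The 10 cells with most Hgf held 6.59% of its 5950 UMIs. The adjusted p of the difference was 0.160 without batch 1 surgery replicate 2, 0.132 without batch 2 surgery replicate 1, 0.219 without batch 1 sham replicate 2 and 0.329 without batch 2 sham replicate 1 (edgeR), with log2 values of -0.45, -0.41, -0.45 and -0.45. In a fit without a batch-specific effect of the set the adjusted p was 0.189 (edgeR).

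The other 7 were transcripts of other lineages or rested on few cells. Pf4 stood at 3.34, 596, 475 and 221 CPM in first-clause cells after surgery and 7.27, 46.6, 133 and 56 CPM after sham (difference 2.24 ± 0.42, edgeR adjusted p = 0.0145), but 10 cells held 90.6% of its 1958 UMIs. S100a8, a calcium-binding protein of neutrophils, stood at 92.3, 40.4, 888 and 303 CPM after surgery and 531, 759, 534 and 575 CPM after sham (difference -1.60 ± 0.26, edgeR adjusted p = 0.00253), with 74.0% of its UMIs in 10 cells, and its difference in the high range was -0.59 (edgeR adjusted p = 0.81). The neutrophil genes Fcnb and Wfdc21 differed by -1.34 ± 0.23 and -1.24 ± 0.21 (edgeR adjusted p = 0.00294 and 0.00253), with 68.7% and 62.9% of their UMIs in 10 cells. The globin genes Hbb-bt and Hba-a1 differed by 2.14 ± 0.28 and 1.75 ± 0.29 (edgeR adjusted p = 0.000298 and 0.00253), with 48.7% and 44.1% of their UMIs in 10 cells, and both have near-identical copies among which reads may have been divided. Gpr158, an orphan receptor, differed by 2.99 ± 0.49 (edgeR adjusted p = 0.00253) on 74 UMIs in 28 cells. Beside these values, the summed neutrophil list ran from 5596 to 9943 CPM in first-clause cells after surgery and from 7976 to 8790 CPM after sham. The megakaryocyte list ran from 485 to 1352 CPM after surgery and from 458 to 658 CPM after sham, and the erythroid list from 232 to 579 CPM after surgery and from 211 to 624 CPM after sham. The part of other lineages in these differences was not tested. Leaving out 1 replicate ended the call (edgeR adjusted p) for Pf4 without batch 2 surgery replicate 1 (0.0884), batch 1 sham replicate 1 (0.0708), batch 1 sham replicate 2 (0.0863) or batch 2 sham replicate 2 (0.0501). It did so for Fcnb without batch 2 surgery replicate 2 (0.0909) or batch 2 sham replicate 1 (0.114), for Hba-a1 without batch 2 surgery replicate 2 (0.184), batch 1 sham replicate 2 (0.0689) or batch 2 sham replicate 1 (0.221), and for Gpr158 without batch 1 sham replicate 2 (0.0948). A fit without a batch-specific effect of the set also ended the calls (edgeR adjusted p) of S100a8 and Fcnb (0.128 each) and Pf4 (0.350).

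**Figure D5:**
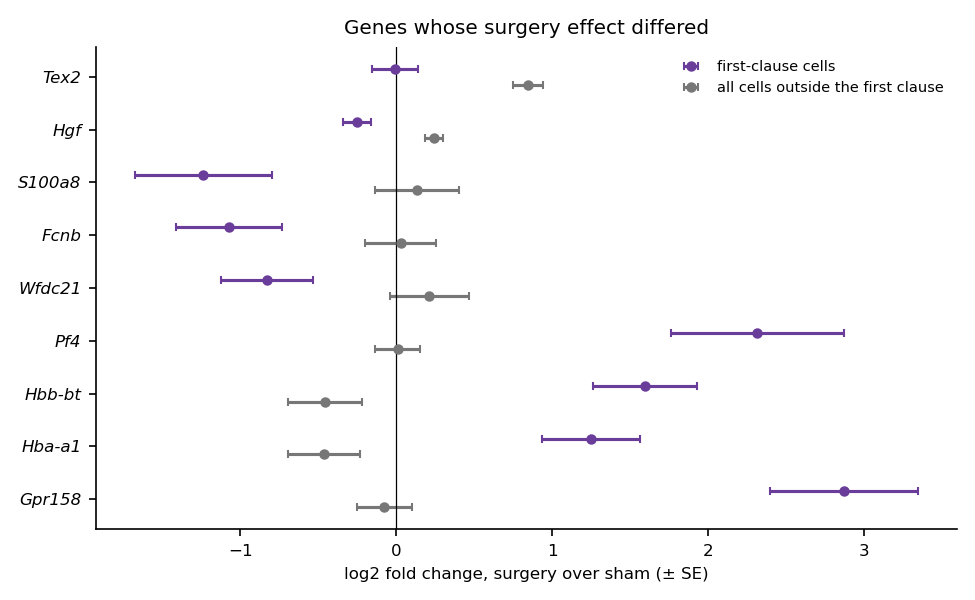
Log2 fold change ± SE of surgery over sham in first-clause cells and in all cells outside the first clause, for the 9 genes whose effects differed between these sets (edgeR adjusted p under 0.05). Tex2 was near 0 in first-clause cells and at 0.85 outside them, whereas the other 8 genes stood further from 0 in first-clause cells or opposite in sign.

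Within the ranges, 0 genes passed in the low range, 1 in the middle and 1 in the high range (0.0%, 0.021% and 0.0131% of genes tested by edgeR), with 350 genes of the low range at an unadjusted p under 0.05; DESeq2 was not run on the ranges. Olr1, a scavenger receptor for oxidised lipoprotein, stood at 45.2, 51.4, 80.8 and 47.5 CPM in the high range after surgery and 23.9, 20.1, 19.3 and 17.9 CPM after sham. All surgery replicates lay above all sham replicates, with a log2 fold change of 1.47 ± 0.23 (edgeR adjusted p = 0.0144) on 188 UMIs, and the effect differed from that outside the first clause by 1.32 ± 0.23 (edgeR adjusted p = 0.00361). Over all first-clause cells Olr1 stood at 38.9, 38.3, 37.1 and 24.2 CPM after surgery and 23.6, 20.6, 20.8 and 14.4 CPM after sham, without overlap, and did not pass (0.79 ± 0.19, edgeR adjusted p = 0.639). Prtn3, proteinase 3 of neutrophil granules, passed in the middle range, at 494, 704, 793 and 1270 CPM after surgery and 350, 500, 541 and 416 CPM after sham (0.86 ± 0.16, edgeR adjusted p = 0.0137). The ranges were set after the data were seen.

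Other genes came nearest to the threshold in members without passing it. Tex2 stood at 103, 102, 127 and 116 CPM in members after surgery and 89.1, 78.7, 61.5 and 65.9 CPM after sham (log2 fold change 0.67 ± 0.11, edgeR adjusted p = 0.0588), without overlap, and DESeq2 called it (adjusted p = 0.000536). Mef2c, a myeloid and lymphoid transcription factor, stood at 185, 154, 182 and 158 CPM after surgery and 122, 133, 126 and 128 CPM after sham (0.41 ± 0.07, edgeR adjusted p = 0.123). Tap2, a subunit of the antigen peptide transporter, had a fold change of 0.41 ± 0.07 (edgeR adjusted p = 0.123) in members, 0.55 in second-clause-only cells (edgeR adjusted p = 0.0426) and 0.17 ± 0.10 in first-clause cells. On the negative side, Pfkp, the platelet form of the glycolytic enzyme phosphofructokinase, had -0.37 ± 0.08 (edgeR adjusted p = 0.459) in members, and stood in first-clause cells at 136, 103, 83.9 and 69.6 CPM after surgery and 140, 160, 108 and 99.8 CPM after sham. H1f10, a linker histone, stood at 56.7, 59.5, 81.2 and 84.7 CPM in first-clause cells after surgery and 47.3, 47.6, 44.8 and 49.9 CPM after sham, without overlap (0.61 ± 0.13, edgeR adjusted p = 0.466). Fgd4, Pde4b and Ccr2 above and Plp2, Csrp3, Btaf1 and Hnrnpll below were also among the 6 nearest per direction in members. Their absolute log2 fold changes were no larger than 0.47. Hgf completed those below, at -0.414 to -0.225 in members when 1 replicate was left out. Csrp3 is a rule gene, so its value in members follows in part from the rule. In first-clause cells the remaining nearest were Sf3b4 and Etaa1 above and Btaf1, Mxd1, Gosr2, Tnk2 and Klf9 below.

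Since 0 of 9625 genes passed in first-clause cells by edgeR, none of the genes on 26 lists was called there. The lists that define the cells had medians between -0.21 and 0.07. Of 18 tested surface receptors, 8 had a positive fold change, with a median log2 value of -0.00. Of 7 proteases 1 was positive (median -0.11), of 14 mediator genes 4 (median -0.03), of 10 cytokines 3 (median -0.21), of 25 transcription factors 8 (median -0.03) and of 15 growth factor and adhesion receptors 11 (median 0.07). Over all 9625 genes 4837 were positive with a median of 0.00. G2 and M phase genes had 31 of 36 positive values (median 0.13) and S phase genes 6 of 25 (median -0.04). In all members the direction differed, with 11 of 37 G2 and M phase genes positive (median -0.04) and 13 of 25 S phase genes (median 0.00). The G2 and M phase median in members thus ran against the 3.62 points by which their G2/M cell share was higher after surgery. Of the genes that earlier results called after surgery in other cell classes of these data, 12 were tested in first-clause cells, where 9 were positive with a median of 0.13, and 18 in members, where 15 were positive with a median of 0.19 and Thbs1 was called. Genes of a list move together in the same cells, so these counts are descriptions and not tests.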

How the data were processed

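The values used are raw UMI counts for each gene in each barcode, as deposited, which the authors made with Cell Ranger on GRCm38, per the submitters' processing notes, and did not normalise, while the version, strand setting and handling of reads shared between genes are not given in the sources used here. Hashtag lines (22.2% and 16.1% of all counts in batch 1 and batch 2) were kept out of gene totals, and barcodes with several hashtags (602 and 322) or none (1788 and 986) were left out. Counts were summed per replicate and set of cells (Python 3.11.15, scanpy 1.11.5) and tested with edgeR 4.0.16 (R 4.3.3): filterByExpr, TMM scaling, glmQLFit and glmQLFTest with batch as a term, Benjamini-Hochberg adjustment over all genes tested and a threshold of 0.05. Differences between sets were interaction terms of a joint fit with the replicate as block and a batch-specific effect of the set. For shares, the exact permutation test ran over replicates, two-sided (scipy 1.17.1). DESeq2 1.42.0 and the other alternatives are given in the closing section. Scripts were tested on simulated data. The members, the 26 gene lists and the split into clauses and ranges were chosen with earlier results of these data known, and the analyses of first-clause cells were added after the data were seen. Genes named for surgery were all those past the threshold and, where fewer than 6 passed, the 6 lowest p-values per direction with at least 20 CPM; genes named in the differences between sets and in the ranges are all that passed there. Replicate numbers do not pair the samples.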

Additional observations from a re-analysis of the deposited data

Results flagged for a closer look

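In 134 groups of 4 replicates, Dixon's criterion at 95% marked 3, where chance alone marks about 1 in 20. Sham replicate 2 of batch 1 had 24.9% of its first-clause cells in the low range of Mcpt8 and Prss34, and the other sham replicates had 34.4 to 36.3%. Surgery replicate 2 of batch 2 had 24.2 CPM of Olr1 in first-clause cells, and the other surgery replicates had 37.1 to 38.9 CPM. The same replicate had 57.5 CPM of Hbb-bt in first-clause cells, and the other surgery replicates had 15.6 to 19.1 CPM.

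The surgery effect in first-clause cells minus that in all cells outside the first clause passed an interaction test (edgeR, adjusted over all genes) for 9 genes. On the log2 scale the difference was -0.90 for Tex2, -0.50 for Hgf, -1.60 for S100a8, -1.34 for Fcnb, -1.24 for Wfdc21, 2.24 for Pf4, 2.14 for Hbb-bt, 1.75 for Hba-a1 and 2.99 for Gpr158.

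Among the 2774 barcodes that carried no hashtag, and so belong to no group, 32 met the rule, 14 of them by the first clause. Their median depth was 2007.5 UMIs.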

How the results depend on the processing

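The share of members kept its positive difference and stayed short of the threshold in each of its 19 alternatives, but it was 0.108 points with the rule on cells thinned to 1000 UMIs and 0.296 points with the stricter rule, against 1.31 points as reported, and 0.410 to 2.09 points when 1 replicate was left out. The first-clause share difference was -0.148 points with cells thinned to 1000 UMIs and ran from -0.279 to 0.555 points when 1 replicate was left out. The G2 and M difference was -1.20 points at 1000 UMIs, and the Mcpt8 or Prss34 difference 2.73 points without thinning. The Cma1 difference ran from -0.497 to -0.186 points when 1 replicate was left out, and without batch 1 sham replicate 1 its exact permutation p was 0.0286. The rule counts Cma1, so this p cannot decide whether surgery changed its share.

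The count of genes called in members was 2 with DESeq2, 58 without a low-count filter, 0 without the batch term, 0 with the stricter rule, 2 with Scrublet calls removed, 2 with a hashtag minimum of 500 counts, 2 with at least 3000 UMIs per cell, 0 with the rule or the members thinned to 1000 UMIs, 0 for the first clause, 3 for the second clause and 0 to 3 when 1 replicate was left out. In first-clause cells it was 1 with DESeq2, 31 without a low-count filter and 0 to 7 when 1 replicate was left out, with 7 without batch 2 surgery replicate 1. The count of genes whose effect differed between members and all other cells was 0 to 13 when 1 replicate was left out, with 13 without batch 1 sham replicate 1. Between first-clause cells and all cells outside it was 5 without a batch-specific effect of the set and 4 to 14 when 1 replicate was left out, with 4 without batch 1 sham replicate 2 and 14 without batch 2 sham replicate 2. Tex2 turned to -0.0232 on the log2 scale with the rule on thinned cells and -0.00708 in first-clause cells, Pde4b to -0.0863 with the rule on thinned cells, and Hgf to 0.61 in second-clause-only cells. The cause of these changes was not tested.

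With the replicate number as a block, pairing surgery and sham replicates of the same number within a batch, 1 gene was called in members and 2 in first-clause cells. Same-numbered replicates hardly deviated together (correlations of 0.0264 and 0.0354 in members and 0.00488 and 0.0163 in first-clause cells), so the numbers are not taken as pairs.

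Depth limits what can be said of first-clause cells, whose gene UMIs summed to 550261 to 2039373 per replicate, and of their ranges, where Olr1 rests on 188 UMIs. Doublets of cells with the same hashtag could not be removed, and Mcpt8 UMIs were also seen in B-lineage cells.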
